A study of Arabidopsis thaliana with 27 samples.

Results

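The dehydration marker genes examined here are 8 Arabidopsis genes that are widely read as signs of water deficit, cold and abscisic acid (ABA) in leaves: *RD29A* (AT5G52310), *RD29B* (AT5G52300), *RD20* (AT2G33380), *RD22* (AT5G25610), *KIN1* (AT5G15960), *KIN2* (AT5G15970), *COR413-PM1* (AT2G15970) and *COR414-TM1* (AT1G29395). They were taken by these locus identifiers, a rule that uses no values, and are 8 of the 34218 genes in the table of normalized counts. The choice of the genes was made with earlier results of these data known. Dehydration reaches such genes by an ABA-dependent route, in which AREB/ABF bZIP factors bind ABA-responsive elements, and by an ABA-independent route, in which DREB/CBF factors bind the dehydration-responsive element, which also serves the response to cold. *RD29A* is the textbook promoter that joins the routes, while its neighbour *RD29B* is the textbook ABA reporter. The proteins encoded are mostly small and hydrophilic or sit in membranes and oil bodies, and they are thought to protect cells that lose water.

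Leaf RNA was sequenced from WT (Col-0) and from plants that expressed full-length *AtTOR*, the *TOR* kinase of Arabidopsis, in the same background, to ask how the kinase bears on the response to drought. *GC::AtTOR* plants (called the guard cell line where both are set side by side) carry it behind a tobacco promoter that is active in guard cells, and *35S::AtTOR* plants carry it behind the constitutive CaMV 35S promoter. Each genotype was sampled well-watered, with soil water held at a constant level, after drought, with water withheld for 11 days (27 to 38 days after germination, DAG), and re-watered, 4 days after water was returned. There were 3 samples in each of the 9 groups, 27 in all, and several homozygous lines stand behind each construct without the sources used here saying which line gave which sample. The age of the well-watered plants at sampling and the hour of collection are likewise not given in the sources used here, so that in a comparison between treatments the water supply, the age and the hour cannot be told apart. All samples carry the same batch label.

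A normalized count is a gene's read count divided by a size factor of its sample, not by the gene's length. In the 26 samples where reads could be recovered they numbered from 10385851 to 16707106 per sample except in *35S::AtTOR* re-watered replicate 1, with 2739872, where 1 read equals 4.13 normalized counts. *TOR* itself stood between 1060 and 1362 normalized counts in all 18 WT and *GC::AtTOR* samples and between 8353 and 14667 in the 9 *35S::AtTOR* samples, so that the guard cell construct left no rise visible in whole-leaf RNA. Markers of mesophyll summed to 156354 to 361928 in well-watered samples, 51372 to 149195 in drought and 56751 to 194831 after re-watering, and 6 guard cell markers to 496 to 1187 over all samples. Root and flower markers summed to at most 3.4. The 4 seed storage and late embryo markers summed to 13.9, 186 and 103 in the 3 well-watered WT samples and to at most 2.5 in the other samples. In leaf RNA of this kind, fewer cells of a type and less RNA per cell cannot be told apart.

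*RD29B* and *RD29A* lie head to tail on chromosome 5 of the TAIR10.1 annotation, *RD29B* from 21237021 to 21239531 and *RD29A* from 21240717 to 21243644, both on the plus strand with 1185 bases between them. *KIN1* (5209717 to 5210826) and *KIN2* (5211719 to 5212743) form another tandem pair on the plus strand of chromosome 5, 892 bases apart. *RD22* is on the minus strand of chromosome 5 (8914122 to 8916856), *RD20* on the minus strand of chromosome 2 (14144831 to 14146555), *COR413-PM1* on the plus strand of chromosome 2 (6949851 to 6951192) and *COR414-TM1* on the minus strand of chromosome 1 (10288129 to 10289666), 25 bases from *COR413IM2*, a gene of the same family. The 250 bases upstream of the annotated start of the tandem genes are printed because each pair turned out to contain genes that responded differently. They are RefSeq sequence, 5′ to 3′ on the gene's strand, and capitals mark the letters CCGAC, the core of the dehydration-responsive element, and ACGTG, the core of the ABA-responsive element, on either strand (as GTCGG and CACGT where the match is on the other strand).
*RD29A* upstream: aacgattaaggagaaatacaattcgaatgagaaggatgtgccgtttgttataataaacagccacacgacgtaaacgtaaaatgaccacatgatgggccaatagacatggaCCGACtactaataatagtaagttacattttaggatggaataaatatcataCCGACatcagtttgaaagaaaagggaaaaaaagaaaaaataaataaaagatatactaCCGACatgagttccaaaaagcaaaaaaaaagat
*RD29B* upstream: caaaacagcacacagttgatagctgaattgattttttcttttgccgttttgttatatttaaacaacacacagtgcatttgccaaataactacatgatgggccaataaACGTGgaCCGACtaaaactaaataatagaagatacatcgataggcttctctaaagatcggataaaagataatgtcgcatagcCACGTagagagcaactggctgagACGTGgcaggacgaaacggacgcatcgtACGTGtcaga
*KIN1* upstream: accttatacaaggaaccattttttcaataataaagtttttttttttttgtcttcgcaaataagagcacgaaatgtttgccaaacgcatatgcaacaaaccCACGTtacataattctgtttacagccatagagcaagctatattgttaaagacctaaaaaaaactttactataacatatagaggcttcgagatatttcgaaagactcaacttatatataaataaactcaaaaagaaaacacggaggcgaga
*KIN2* upstream: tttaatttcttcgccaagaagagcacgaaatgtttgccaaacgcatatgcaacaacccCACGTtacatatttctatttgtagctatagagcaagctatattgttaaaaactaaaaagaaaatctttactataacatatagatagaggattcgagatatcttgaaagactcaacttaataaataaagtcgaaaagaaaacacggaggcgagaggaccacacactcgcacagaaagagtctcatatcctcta

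*RD29A* held 3 matches to CCGAC and 0 to ACGTG in this window, and *RD29B* held 1 and 4. CCGAC occurred in 12% and ACGTG in 22.9% of the 27443 windows of the same length upstream of annotated genes, at least 2 ACGTG in 8.84% and the letters CCGAC and ACGTG together in 3.39%. *KIN1* and *KIN2* each held 1 ACGTG and 0 CCGAC. Their windows could be aligned over 214 columns with 86.9% identical letters, against 126 columns with 73.8% for *RD29A* and *RD29B*. *RD20* and *COR414-TM1* each held 3 matches to ACGTG, of which a pair overlapped as the palindrome CACGTG, *RD22* held 1, and for *COR413-PM1* there was 1 match to CCGAC. The letters of a MYC site, CANNTG, of which CACGTG is an instance, occurred at least 1 time in every one of the 8 windows and in 55.3% of all windows. A match is a description of the letters and not evidence of a bound site. Each window ends at the annotated start, and letters downstream of it or further upstream were not searched. Absence of a motif from a window therefore does not show its absence from the promoter.

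*KIN1* and *KIN2* are also alike in their transcripts, which bears on how far reads can be assigned to either. Their coding sequences are printed with the 10 of 201 bases that differ in capitals, an identity of 95%, and the 66-residue products differ at 5 residues.
*KIN1* coding: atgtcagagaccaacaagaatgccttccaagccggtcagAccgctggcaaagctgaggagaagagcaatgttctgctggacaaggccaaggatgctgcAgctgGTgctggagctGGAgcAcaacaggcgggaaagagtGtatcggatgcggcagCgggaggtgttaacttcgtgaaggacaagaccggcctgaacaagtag
*KIN2* coding: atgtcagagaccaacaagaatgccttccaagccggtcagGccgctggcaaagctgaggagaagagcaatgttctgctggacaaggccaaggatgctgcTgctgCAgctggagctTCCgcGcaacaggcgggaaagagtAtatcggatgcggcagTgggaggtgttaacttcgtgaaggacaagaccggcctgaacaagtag
Runs of 31 bases shared by both transcripts made up 7.88% of the runs in *KIN1* and 8.75% of those in *KIN2*, and the rest, mostly outside the coding sequence, told them apart. The values of these 2 genes are uncertain to the extent that the counting step divided reads from the shared part. *RD29A* and *RD29B* shared under 1% (0.418% and 0.514%), *COR414-TM1* shared 4.14% with *COR413IM2*, and *RD20*, *RD22* and *COR413-PM1* shared none with any other gene.

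In well-watered WT leaves 5 of the 8 genes were already abundant. Per kilobase of transcript, which allows genes to be compared, the mean level was 33350 normalized counts for *KIN2*, 16514 for *RD29A*, 12817 for *COR413-PM1*, 7804 for *RD22* and 6347 for *COR414-TM1*. *KIN1* stood at 1457 per kilobase, *RD20* at 344 and *RD29B* at 66.8. *RD29A* alone took 0.304% to 0.319% of all normalized counts in these 3 samples. All 8 genes had a mean of at least 10 normalized counts in some group and were tested.

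**Figure D1:**
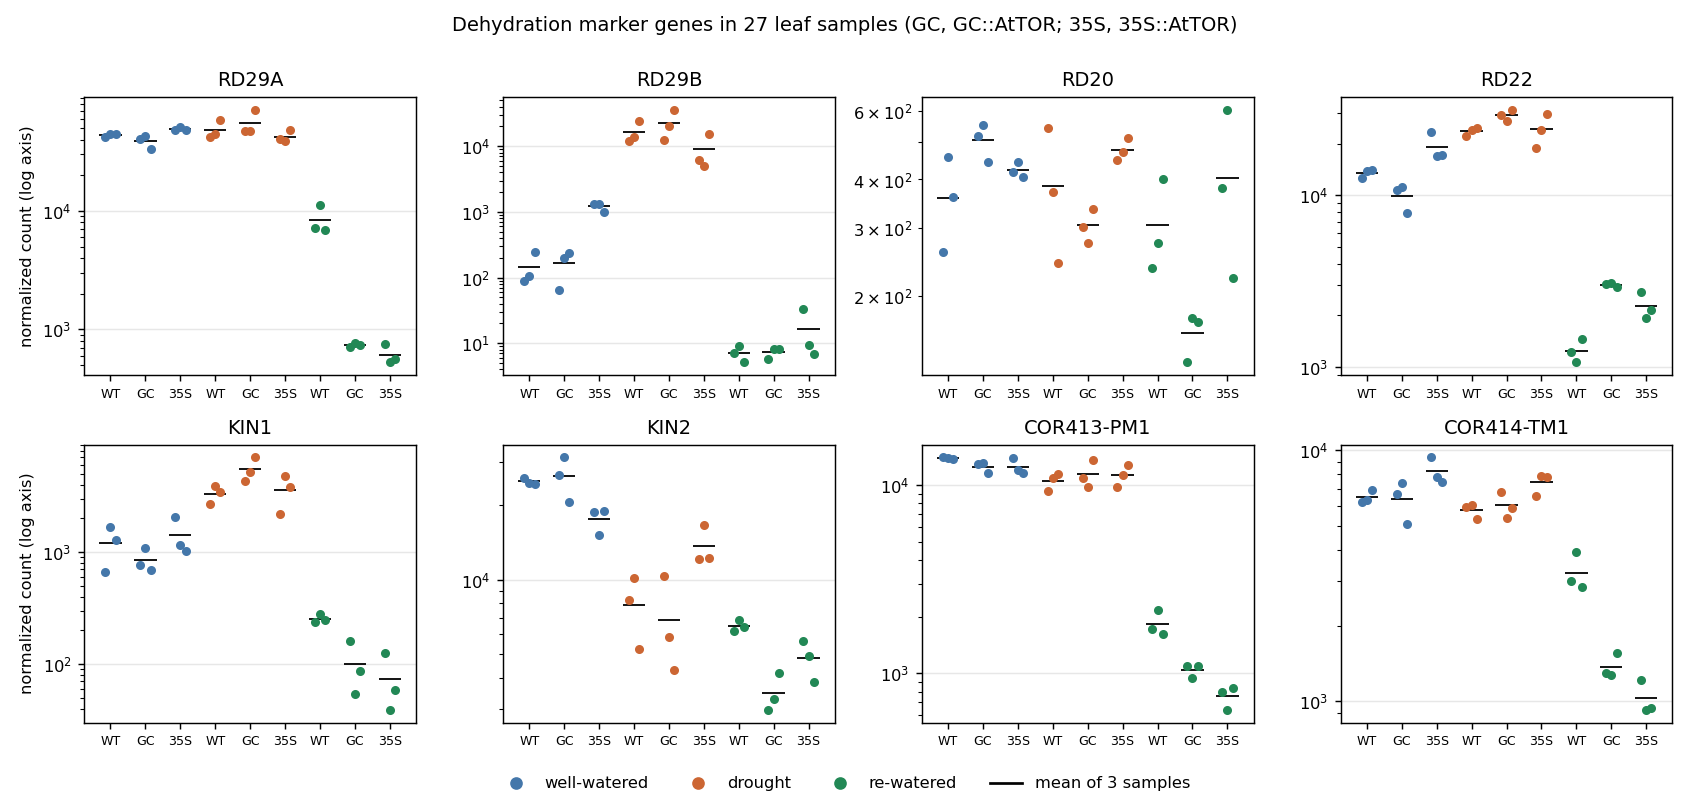
Normalized counts (log axis, not divided by length) of the 8 genes in each of the 27 samples, by genotype within each water treatment; points are samples and bars are means of 3. *RD29B* runs from 5.1 to 35828, *RD29A* is level until re-watering, *KIN1* and *KIN2* move apart in drought, and *RD20* stays between 135 and 605.

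Differences were called at an adjusted p under 0.05 in limma with a log2 fold change, on log2(normalized count + 1), above 1 or below -1. Between drought and well-watered leaves, 3 of the 8 genes were called in WT (*RD29B* and *KIN1* higher, *KIN2* lower), 4 in *GC::AtTOR* (*RD22* higher in addition) and 2 in *35S::AtTOR* (*RD29B* and *KIN1* higher). Over all 18785 genes tested, 7.61% were called higher and 12.8% lower in WT, 8.02% and 17% in the guard cell line, and 2.32% and 5.44% in *35S::AtTOR*. The median log2 fold change of the 8 genes was 0.09, 0.20 and 0.02 in the 3 genotypes, beside -0.03, -0.03 and -0.01 over all genes.

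The mesophyll markers given above were also lower in drought, and their part in these values was not tested.

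*RD29B*, a hydrophilic protein also known as LTI65 and induced by ABA, changed most of the 8. Its normalized counts in WT were 87.1, 104 and 244 well-watered and 12053, 13905 and 23869 in drought. In *GC::AtTOR* they were 64.6, 198 and 234 against 12446, 20243 and 35828. In *35S::AtTOR* they were 1300, 1315 and 1012 against 6084, 5068 and 15593. Drought samples lay above well-watered samples in every genotype without overlap, and the well-watered *35S::AtTOR* samples lay apart from the other well-watered samples. The log2 fold change was 6.92 ± 0.54 (SE) in WT, 7.16 ± 0.54 in the guard cell line and 2.71 ± 0.54 in *35S::AtTOR* (adjusted p = 3.67e-09, 1.36e-09 and 0.00118, limma).

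*RD29A*, also known as COR78 or LTI78 and encoding a related hydrophilic protein, did not follow its neighbour. Its normalized counts in WT were 42275, 44752 and 44904 well-watered and 42064, 44660 and 58070 in drought, which overlap. In *GC::AtTOR* they were 40315, 43026 and 33255 against 47043, 46915 and 71411, and in *35S::AtTOR* 48412, 51416 and 48277 against 40195, 38746 and 48359. Only in *GC::AtTOR* did the samples not overlap, and the fitted log2 fold changes of 0.12 ± 0.20, 0.48 ± 0.20 and -0.22 ± 0.20 (adjusted p = 0.632, 0.0396 and 0.424, limma) were all under the floor of 1. In each genotype the sample numbered replicate 3 had the highest drought value of *RD29A* and of *RD29B*.

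*KIN1* and *KIN2* encode near-identical small alanine-rich proteins, *KIN2* being also called COR6.6, and they went in opposite directions. *KIN1* rose in WT from 660, 1680 and 1282 normalized counts to 2671, 3844 and 3436, and in *GC::AtTOR* from 757, 1091 and 686 to 4309, 5214 and 7005. In *35S::AtTOR* it went from 2037, 1165 and 1029 to 2186, 4724 and 3788. The treatments did not overlap in any genotype, although in *35S::AtTOR* the nearest samples, 2037 and 2186, almost met. The log2 fold changes were 1.54 ± 0.41, 2.70 ± 0.41 and 1.33 ± 0.41 (adjusted p = 0.00359, 1.11e-05 and 0.021, limma). The call in *35S::AtTOR* was lost without replicate 2 or 3 of either treatment (adjusted p = 0.0728 to 0.0888).

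*KIN2* fell in WT from 25900, 24659 and 24479 normalized counts to 8276, 10106 and 5225, and in *GC::AtTOR* from 26549, 31301 and 20700 to 10322, 5855 and 4294. In *35S::AtTOR* it was 18855, 15167 and 18901 well-watered and 12141, 16618 and 12214 in drought, which overlap. The log2 fold changes were -1.72 ± 0.26, -2.02 ± 0.26 and -0.38 ± 0.26 (adjusted p = 1.32e-05, 1.31e-06 and 0.293, limma). Because *KIN2* was the more abundant transcript, the sum of both genes went down with it, from a mean of 26220 to 11186 normalized counts in WT, from 27028 to 12333 in the guard cell line and from 19051 to 17224 in *35S::AtTOR*.

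**Figure D2:**
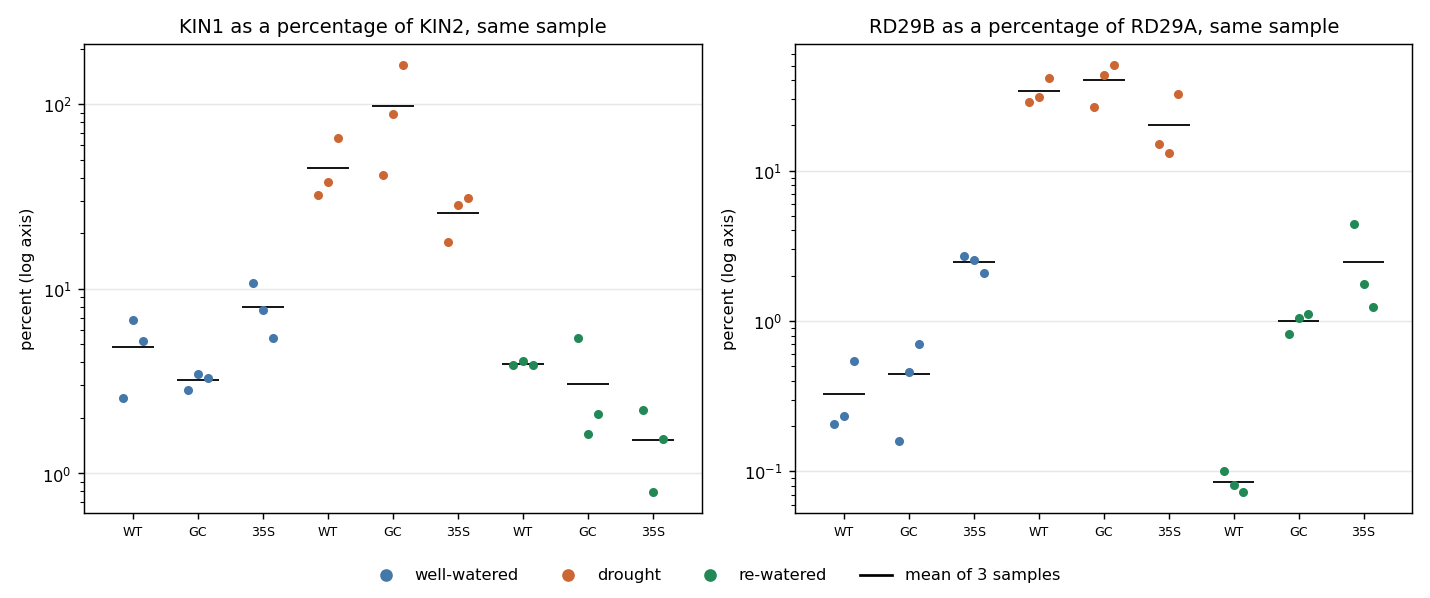
*KIN1* as a percentage of *KIN2* (left) and *RD29B* as a percentage of *RD29A* (right) in the same sample, from normalized counts on a log axis; points are samples and bars are means of 3. Drought samples hold the highest ratios in both panels, 18% to 163% on the left and 13.1% to 50.2% on the right.

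As a ratio within each sample, which does not depend on the size factor, *KIN1* was 2.55% to 10.8% of *KIN2* in the 9 well-watered samples, 18% to 163% in the 9 drought samples and 0.797% to 5.45% in the 9 re-watered samples. The drought ratios overlapped with neither of the others. *RD29B* was 0.16% to 2.69% of *RD29A* in well-watered samples, with 2.1% to 2.69% in *35S::AtTOR* and at most 0.705% in the others, and 13.1% to 50.2% in drought. After re-watering the ratio was 0.0733% to 0.101% in WT, 0.822% to 1.12% in the guard cell line and 1.24% to 4.4% in *35S::AtTOR*. These last groups did not overlap, but *RD29B* rested there on 6 to 11 reads per sample.

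*RD22*, a BURP-domain protein of the cell wall whose induction by ABA is mediated by MYC and MYB factors, was called in drought only in *GC::AtTOR*. There its normalized counts went from 10675, 11184 and 7918 to 29524, 27028 and 31522, a log2 fold change of 1.58 ± 0.17 (adjusted p = 1.84e-07, limma). In WT they went from 12598, 13860 and 13976 to 22126, 24060 and 24847, without overlap, with a log2 fold change of 0.81 ± 0.17 (adjusted p = 0.00053, limma) that is below the floor. With all sample totals made equal it became 1.09 and was called. In *35S::AtTOR* they were 23462, 17027 and 17215 against 18899, 23908 and 29951, which overlap, with a log2 fold change of 0.33 ± 0.17 (adjusted p = 0.17, limma). The difference between the response of *GC::AtTOR* and that of WT was 0.77 ± 0.25 (adjusted p = 0.172, limma) and was not called.

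*RD20*, a calcium-binding caleosin of lipid droplets also named CLO3, was called in drought in no genotype. It is widely used as a marker of ABA and drought, and in drought it stood at 543, 371 and 243 normalized counts in WT, 302, 275 and 336 in the guard cell line and 449, 472 and 512 in *35S::AtTOR*. The well-watered samples held 260, 457 and 361, then 519, 553 and 443, then 418, 444 and 406. WT samples overlapped, *GC::AtTOR* samples were lower in drought and *35S::AtTOR* samples higher, each without overlap, with log2 fold changes of 0.07 ± 0.28, -0.73 ± 0.28 and 0.17 ± 0.28 (adjusted p = 0.864, 0.0328 and 0.69, limma). *COR413-PM1* and *COR414-TM1*, multispanning membrane proteins placed in the plasma membrane and the chloroplast, had log2 fold changes between -0.40 and -0.08 in drought and were not called.

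**Figure D3:**
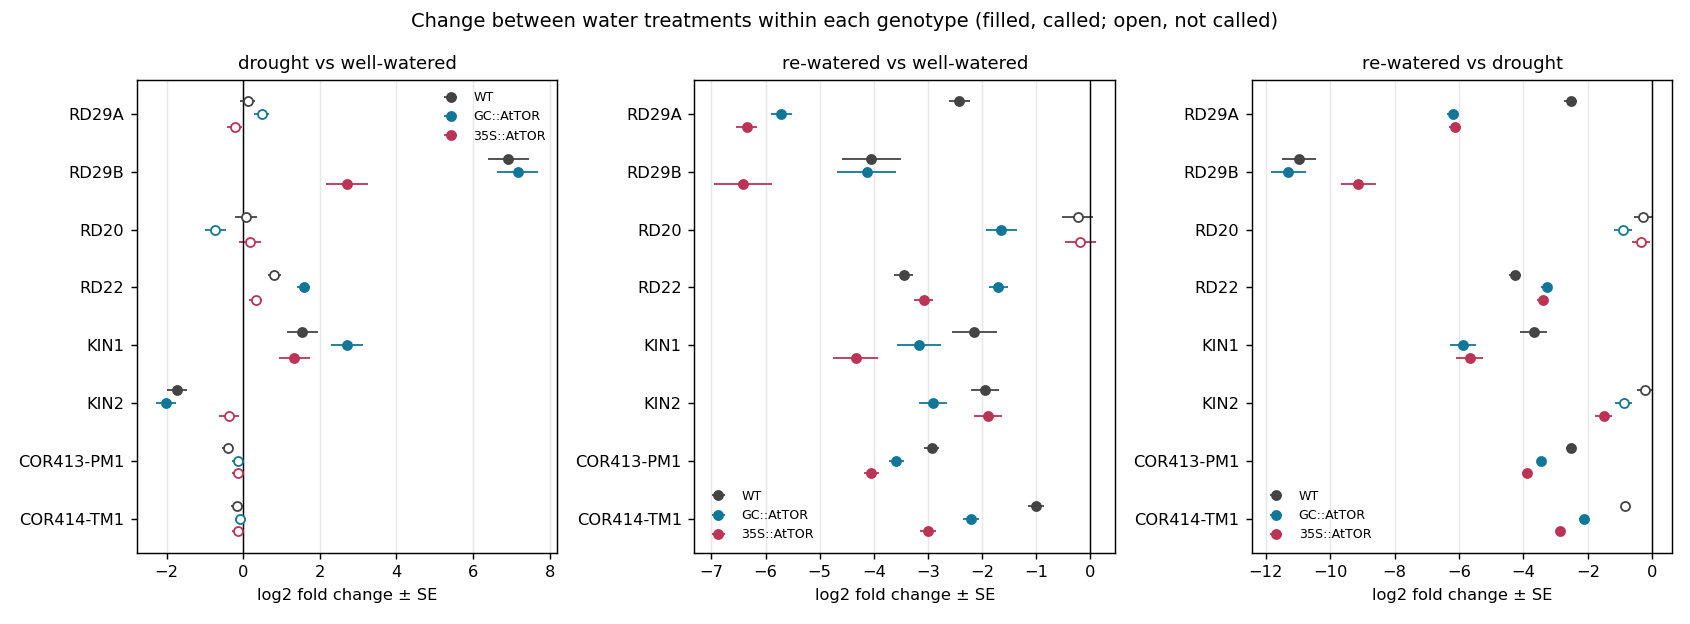
Log2 fold changes (points) with standard errors (bars) of the 8 genes between water treatments in WT, *GC::AtTOR* and *35S::AtTOR*, from limma on log2(normalized count + 1). *RD29B* leads the drought panel at 2.71 to 7.16, and in the panel of re-watered against well-watered leaves all points lie below 0, down to -6.42.

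After 4 days of re-watering the genes did not return to their well-watered levels but went below them, apart from *RD20* in WT and *35S::AtTOR*. Re-watered against well-watered leaves, 7 of the 8 genes were called lower in WT and in *35S::AtTOR*, *RD20* being the exception, and all 8 in *GC::AtTOR*, with 0 called higher. Over all genes 14.4% were called higher and 15.8% lower in WT, 6.68% and 7.95% in the guard cell line, and 9.72% and 9.92% in *35S::AtTOR*. The median log2 fold change of the 8 was -2.28, -3.04 and -3.56, beside 0.02, 0.02 and 0.00 over all genes. Against drought leaves 5, 6 and 7 of the 8 were called lower in WT, *GC::AtTOR* and *35S::AtTOR* and 0 higher, where 12.5%, 10.4% and 9.27% of all genes were called lower and 15.4%, 17.9% and 12% higher.

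*RD29A* held 7115, 11174 and 6958 normalized counts in re-watered WT, 710, 773 and 732 in the re-watered guard cell line and 752, 527 and 560 in re-watered *35S::AtTOR*. Every sample lay below every well-watered or drought sample, and the WT samples lay above those of both lines. Against well-watered leaves the log2 fold change was -2.42 ± 0.20 in WT, -5.71 ± 0.20 in the guard cell line and -6.35 ± 0.20 in *35S::AtTOR* (adjusted p = 7.65e-10, 1.63e-15 and 1.71e-16, limma), that is 5.35-fold, 52.3-fold and 81.4-fold lower.

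*RD29B* was reduced to 7.17, 9.06 and 5.1 normalized counts in re-watered WT, 5.83, 8.07 and 8.22 in the guard cell line and 33.1, 9.27 and 6.92 in *35S::AtTOR*. The value of 33.1 came from the shallow library and stands for 8 reads, so that it cannot be set apart from the others. Against drought leaves the log2 fold change was -10.96 ± 0.54, -11.29 ± 0.54 and -9.12 ± 0.54 in the 3 genotypes, and against well-watered leaves -4.05 ± 0.54, -4.13 ± 0.54 and -6.42 ± 0.54 (adjusted p of the latter 1.29e-06, 2.52e-06 and 3.38e-09, limma).

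*RD22* stood at 1214, 1063 and 1447 normalized counts in re-watered WT, 3024, 3103 and 2922 in the guard cell line and 2724, 1937 and 2152 in *35S::AtTOR*. None of these groups overlapped, nor did any reach the well-watered samples. The log2 fold changes against well-watered leaves were -3.45 ± 0.17, -1.70 ± 0.17 and -3.08 ± 0.17 (adjusted p = 4.05e-13, 7.23e-08 and 5.1e-12, limma).

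*KIN1* fell to 238, 278 and 247 normalized counts in re-watered WT, 161, 53.8 and 87.3 in the guard cell line and 124, 38.9 and 58.8 in *35S::AtTOR*, the last resting on 30, 42 and 68 reads. *KIN2* stood at 6194, 6825 and 6414, at 2962, 3276 and 4170, and at 5629, 4885 and 3842. The lines lay below WT for both genes without overlap. *KIN1* was lower than in well-watered leaves by log2 fold changes of -2.14 ± 0.41, -3.17 ± 0.41 and -4.33 ± 0.41, and *KIN2* by -1.95 ± 0.26, -2.91 ± 0.26 and -1.89 ± 0.26 (largest adjusted p = 0.000114, limma). Against drought leaves *KIN2* was called lower only in *35S::AtTOR*, at -1.51 ± 0.26 (adjusted p = 4.77e-05, limma), with -0.23 ± 0.26 in WT and -0.89 ± 0.26 in *GC::AtTOR*, while *KIN1* was lower in all 3 genotypes, by -3.68 ± 0.41, -5.87 ± 0.41 and -5.67 ± 0.41.

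*COR413-PM1* was at 1718, 2169 and 1624 normalized counts in re-watered WT, 1098, 941 and 1093 in the guard cell line and 798, 639 and 835 in *35S::AtTOR*. *COR414-TM1* was at 3009, 3910 and 2842, at 1299, 1272 and 1553, and at 1219, 924 and 940. For both genes the order was WT, then *GC::AtTOR*, then *35S::AtTOR*, without overlap between neighbours. The log2 fold changes from well-watered leaves were -2.93 ± 0.14, -3.59 ± 0.14 and -4.05 ± 0.14 for *COR413-PM1* and -1.01 ± 0.15, -2.21 ± 0.15 and -3.00 ± 0.15 for *COR414-TM1* (largest adjusted p = 5.35e-06, limma). The WT value of *COR414-TM1* sits at the floor, and with equal sample totals it was -0.68 and not called. It also dropped just below the floor in edgeR (-0.979), in DESeq2 (-0.995), with the library number as a block (-0.998) and without well-watered WT replicate 3 or re-watered WT replicate 1 or 3 (-0.96 to -0.92).

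*RD20* fell from its well-watered level only in *GC::AtTOR* among these calls, to 135, 176 and 172 normalized counts, a log2 fold change of -1.65 ± 0.28 (adjusted p = 7.32e-05, limma). It held 237, 275 and 401 in re-watered WT and 380, 605 and 223 in re-watered *35S::AtTOR*, where the shallow library's 380 is 92 reads. These groups overlapped with each other and with their well-watered samples.

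**Figure D4:**
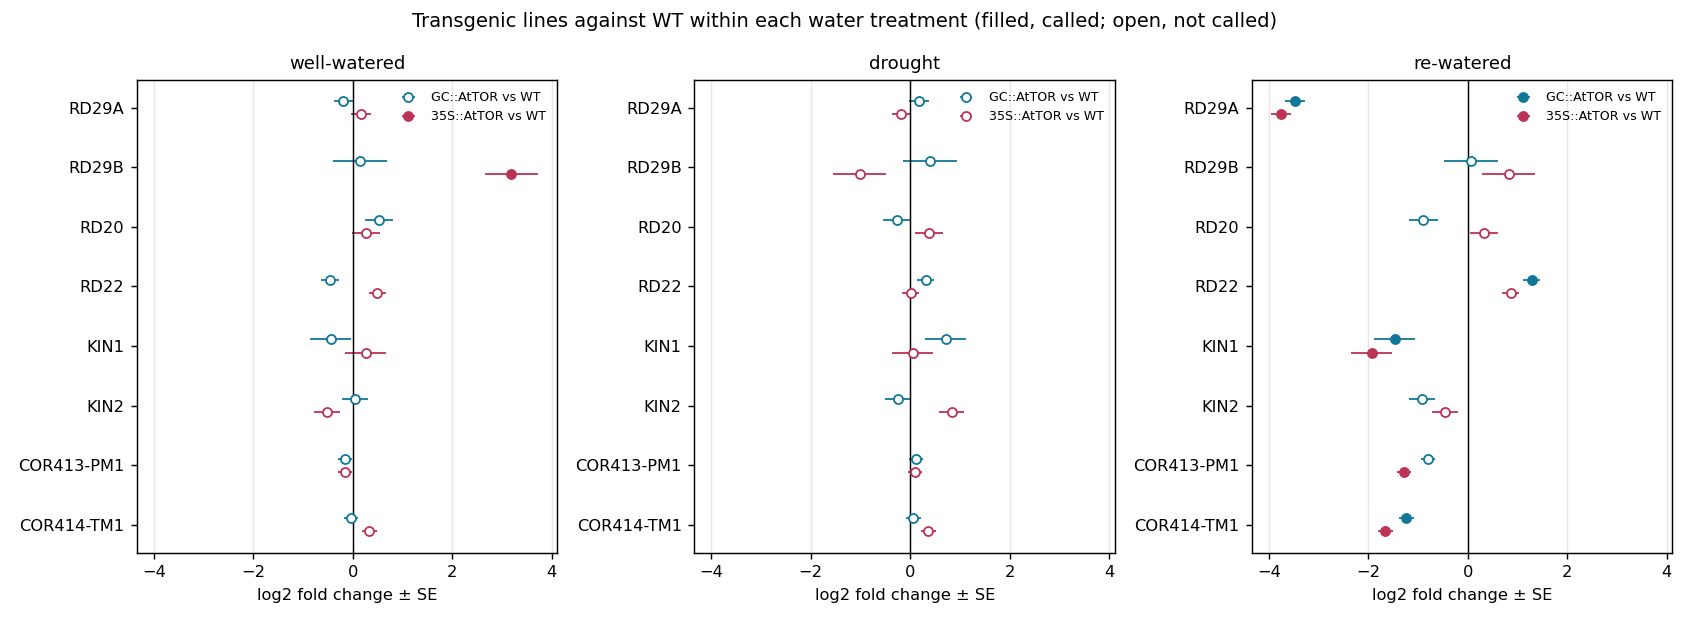
Log2 fold changes (points) with standard errors (bars) of *GC::AtTOR* and *35S::AtTOR* against WT for the 8 genes in each water treatment, from limma on log2(normalized count + 1). A single point is called in well-watered leaves (*RD29B* in *35S::AtTOR*, 3.19), none in drought, and 4 for each line in re-watered leaves.

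Within a treatment, 1 set of WT samples served as the reference for both lines, so that their differences from WT share it. In well-watered leaves 0 of the 8 genes were called in *GC::AtTOR* by limma, edgeR or DESeq2, with 1, *RD22*, at an unadjusted p under 0.05 in limma, and 1 was called higher in *35S::AtTOR*, *RD29B* at 3.19 ± 0.54 (adjusted p = 0.00154, limma). In the same leaves the mesophyll marker sum was 156354 to 195021 in *35S::AtTOR* and 286414 to 361928 in WT, and the phloem marker sum 3513 to 3718 and 2509 to 2789, each without overlap, and their part in this value was not tested. Of all genes 0.98% were higher and 0.0905% lower in the guard cell line, and 1.31% and 1.44% in *35S::AtTOR*. In drought 0 of the 8 were called in either line by any of these tools, with 0 at an unadjusted p under 0.05 for *GC::AtTOR* and 2, *COR414-TM1* and *KIN2*, for *35S::AtTOR*. The background was 0.0106% higher and 0.00532% lower in the guard cell line and 1.25% and 0.298% in *35S::AtTOR*. *KIN2* in droughted *35S::AtTOR* lay above the other genotypes without overlap, at 0.83 ± 0.26 over WT (adjusted p = 0.0861, limma). Without WT drought replicate 2 it was 1.04 and called (adjusted p = 0.0478, limma). *RD29B* in droughted *35S::AtTOR* was at -1.02 ± 0.54 (adjusted p = 0.345, limma), with samples that overlap those of WT.

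The lines parted from WT after re-watering. In the paper's survival test with the same days of drought, no WT plant survived, while *GC::AtTOR* and most *35S::AtTOR* plants did. The state of the leaves sampled for RNA is not given in the sources used here. Its part in the differences below was not tested. Of the 8 genes, 3 were called lower (*RD29A*, *KIN1* and *COR414-TM1*) and 1 higher (*RD22*) in the guard cell line, and 4 lower (*RD29A*, *KIN1*, *COR413-PM1* and *COR414-TM1*) and 0 higher in *35S::AtTOR*, where 8.3% of all genes were called higher and 6.35% lower in the guard cell line and 5.15% and 4.85% in *35S::AtTOR*. *RD29A* differed most, at -3.47 ± 0.20 in the guard cell line and -3.76 ± 0.20 in *35S::AtTOR* (adjusted p = 4.6e-11 and 1.91e-11, limma), 11.1-fold and 13.5-fold below WT. *COR414-TM1* was at -1.23 ± 0.15 and -1.66 ± 0.15, and *KIN1* at -1.47 ± 0.41 and -1.93 ± 0.41 (largest adjusted p = 0.00645, limma). Without *GC::AtTOR* re-watered replicate 2, *KIN1* in *GC::AtTOR* was -1.09 and not called (adjusted p = 0.0519, limma). *COR413-PM1* was at -0.81 ± 0.14 in *GC::AtTOR*, below the floor, and at -1.28 ± 0.14 in *35S::AtTOR*. *KIN2* in *GC::AtTOR* was at -0.91 ± 0.26 (adjusted p = 0.0068, limma), also below the floor, but was called with the library number as a block, at -1.004, and without *GC::AtTOR* re-watered replicate 3, at -1.055 (adjusted p = 0.00347 and 0.00708, limma). *RD22* went the other way, at 1.29 ± 0.17 in the guard cell line (adjusted p = 4.38e-06, limma) and 0.87 ± 0.17 in *35S::AtTOR* (adjusted p = 0.000469, limma), the latter below the floor. The mesophyll marker sum of re-watered leaves also differed between genotypes without overlap, at 56751 to 63638 in WT, 155989 to 194831 in *GC::AtTOR* and 83536 to 124357 in *35S::AtTOR*, and its part in these differences was not tested. The 4 calls in *35S::AtTOR* were also made without the shallow library.

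Whether a line responded differently from WT was tested as the difference of the log2 fold changes. The paper reports that both lines lost less water than WT while water was withheld. Soil water at sampling is not given in the sources used here, and its part in these differences was not tested. For drought against well-watered leaves, 0 of the 8 genes were called in *GC::AtTOR* by limma, edgeR or DESeq2 (1, *RD22*, had an unadjusted p under 0.05 in limma), with 0.0373% of all genes called higher and 0.208% lower. In *35S::AtTOR*, *KIN2* was called higher at 1.34 ± 0.37 (adjusted p = 0.0306, limma) and *RD29B* lower at -4.21 ± 0.77 (adjusted p = 0.0038, limma), with 2.09% and 1.37% of all genes. The call of *KIN2* was lost without any of 7 of the 12 samples involved, WT well-watered replicates 1, 2 and 3, *35S::AtTOR* well-watered replicates 2 and 3, WT drought replicate 3 and *35S::AtTOR* drought replicate 2 (adjusted p = 0.0504 to 0.0919, limma). *RD29B* in *35S::AtTOR* started from a higher well-watered level than in WT and reached drought levels that overlapped with those of WT.

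For re-watered against well-watered leaves, 3 genes were called lower (*RD29A*, *COR414-TM1* and *RD20*) and 1 higher (*RD22*) in *GC::AtTOR* relative to WT, and 5 lower (*RD29A*, *RD29B*, *KIN1*, *COR413-PM1* and *COR414-TM1*) and 0 higher in *35S::AtTOR*. The shares of all genes were 8.8% higher and 7.87% lower in the guard cell line and 7.82% and 7.63% in *35S::AtTOR*. *RD29A* had a difference of -3.29 ± 0.28 in the guard cell line and -3.93 ± 0.28 in *35S::AtTOR* (adjusted p = 7.09e-08 and 7.46e-09, limma). *RD20* and *RD22* differed in *GC::AtTOR* by -1.41 ± 0.40 and 1.75 ± 0.25 (adjusted p = 0.00948 and 1.89e-05, limma). *KIN1* differed in *35S::AtTOR* by -2.19 ± 0.58 (adjusted p = 0.00567, limma). The difference of -2.37 ± 0.77 for *RD29B* in *35S::AtTOR* (adjusted p = 0.0193, limma) goes with a higher well-watered level, 3.19 ± 0.54 over WT. After re-watering *RD29B* was not lower there than in WT, at 0.82 ± 0.54 (adjusted p = 0.238, limma), on counts of 6 to 11 reads. The difference was not called by edgeR or DESeq2 (adjusted p = 0.106 and 0.0649). It was lost in limma without WT well-watered replicate 1 or *35S::AtTOR* re-watered replicate 3 (adjusted p = 0.0529 and 0.0572).

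Ordered over the 9 groups by their means, all of the 8 genes but *RD20* had the 3 re-watered groups at the bottom. For *KIN2* the samples of re-watered WT and *35S::AtTOR* lay within or overlapped the ranges of droughted WT and *GC::AtTOR*. *RD29A* was highest in droughted *GC::AtTOR*, at 55123 ± 14106 (SD, n = 3) normalized counts, and its upper 6 groups overlapped with their neighbours in the order down to well-watered *GC::AtTOR*. *RD29B*, *RD22* and *KIN1* had the 3 drought groups at the top, led by *GC::AtTOR* at 22839 ± 11905, 29358 ± 2252 and 5509 ± 1372, each overlapping with the next group. *KIN2* and *COR413-PM1* had well-watered leaves at the top, at 26183 ± 5310 in the guard cell line and 13919 ± 140 in WT, and *COR414-TM1* in *35S::AtTOR* at 8218 ± 1005. *RD20* had the narrowest order, from 505 ± 56.6 in well-watered *GC::AtTOR* to 161 ± 22.3 in re-watered *GC::AtTOR*.

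Across the 27 samples, which share treatments and libraries, log2 values of *RD29A* followed those of *COR414-TM1* (Pearson r = 0.978) and *COR413-PM1* (0.967) more closely than those of *RD29B* (0.761). *RD29B* followed *KIN1* (0.919) and *RD22* (0.917), and *KIN1* followed *KIN2* only loosely (0.456). *RD20* had no r above 0.629 with any of the others. The 3 genes nearest to each member over the same samples were *SIP1* (0.983), *ASA2* (0.98) and *AT1G51090* (0.979) for *RD29A*, and *LTP3* (0.985), *ALDH7B4* (0.982) and *AT4G29400* (0.979) for *RD29B*. They were *LP1* (0.987), *AT2G38550* and *CER1* (both 0.983) for *RD22*, and *AT1G16850* (0.981), *AT3G05640* (0.969) and *LEA14* (0.963) for *KIN1*. *RD20* had only weaker neighbours, *AT1G70810* (0.859), *AT1G62660* (0.845) and *KAT5* (0.836), and *KIN2* had *LEJ1* (0.959), *TGA3* (0.943) and *AT5G50450* (0.94).

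*COR413-PM1* was nearest to *AT3G55760* (0.993) and to *PCL1* (0.992) and *GI* (0.987), evening genes of the circadian clock, and *COR414-TM1* to *AT3G55760* (0.975), *OEP16-1* (0.969) and *AT1G32860* (0.964). *GI* stood at 3454 to 4155 normalized counts in well-watered samples, 2410 to 3334 in drought and 92.5 to 187 after re-watering. *PCL1* stood at 1496 to 1902, 1191 to 1491 and 128 to 318. The fall of *GI* from well-watered to re-watered leaves was -4.41 ± 0.13 in WT, -4.99 ± 0.13 in the guard cell line and -5.31 ± 0.13 in *35S::AtTOR* on the log2 scale (largest adjusted p = 3.95e-17, limma). The fitted falls of *RD29A*, *RD29B*, *KIN1*, *COR413-PM1* and *COR414-TM1* had the same order of genotypes. Those of *RD20*, *RD22* and *KIN2* did not. For *RD29B* the fall in *GC::AtTOR* differed from that in WT by -0.08 ± 0.77, and the sign changed under 7 of 25 alternatives. For *KIN1* the same difference was -1.025 ± 0.58 (adjusted p = 0.18, limma) and was not called. The order of WT and *GC::AtTOR* is thus not settled for these 2 genes. Against re-watered WT, *GI* was at -0.61 ± 0.13 and -0.77 ± 0.13 in the lines, below the floor. The part of the hour of collection in the re-watered values of the 8 genes was not tested.

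Transcription factors of the ABA, dehydration and cold responses were listed as regulators. Of 14 listed, 13 were tested. *MYC2* was listed at 0 in every sample, and whether this reflects its level or the counting step was not tested. In drought 3 were called higher in WT (*ABF2*, *DREB2A* and *CBF4*) and 0 lower, 2 higher and 3 lower in the guard cell line, and 2 higher and 0 lower in *35S::AtTOR*. The shares of all genes higher and lower were 7.61% and 12.8%, 8.02% and 17%, and 2.32% and 5.44% in the same order. *ABF2*, an ABA-activated bZIP factor also named AREB1, rose by 1.54 ± 0.22 in WT and 1.79 ± 0.22 in *GC::AtTOR* on the log2 scale. Re-watered against well-watered leaves, 3 of the 13 were called higher in WT (*CBF2*, *DREB2A* and *CBF4*) and 6 lower (*ABF1*, *ABF2*, *ABF3*, *ABI5*, *DREB1A* and *DREB2B*). In the guard cell line 1 was higher (*CBF4*) and 2 lower (*ABF1* and *DREB1A*). In *35S::AtTOR* 3 were higher (*CBF2*, *DREB2A* and *CBF4*) and 4 lower (*ABF1*, *ABF3*, *DREB1A* and *DREB2B*). The shares of all genes higher and lower were 14.4% and 15.8%, 6.68% and 7.95%, and 9.72% and 9.92%. *CBF4*, a CBF factor known for its induction by drought, went from a mean of 4.03, 17.5 and 7.01 normalized counts to 180, 189 and 139 in WT, *GC::AtTOR* and *35S::AtTOR*. *DREB1A*, a CBF factor that binds the dehydration-responsive element in the cold, went from a mean of 640, 494 and 327 normalized counts to 6.86, 7.12 and 9.94 in WT, *GC::AtTOR* and *35S::AtTOR*, by -6.34 ± 0.28, -5.95 ± 0.28 and -5.01 ± 0.28 (largest adjusted p = 5.1e-12, limma). *DREB2A*, the dehydration-induced factor for the same element, rose by 3.04 ± 0.27 in WT and 1.98 ± 0.27 in *35S::AtTOR*. In *GC::AtTOR* its rise was not called, with means of 1138 ± 547 (SD, n = 3) normalized counts well-watered and 1688 ± 66 re-watered. The well-watered level there was called higher than that of WT, 354 ± 38.8. *ABF3* was higher in both lines than in WT after re-watering, by 1.33 ± 0.25 and 1.20 ± 0.25 (adjusted p = 0.000233 and 0.000781, limma). Its mean was nonetheless below the well-watered level in every genotype. It went from 553 to 123 normalized counts in WT, 542 to 290 in *GC::AtTOR* and 780 to 266 in *35S::AtTOR*.

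Among 8 other cold-regulated genes, 2 were called higher and 2 lower in droughted WT, 3 and 3 in the guard cell line and 2 and 1 in *35S::AtTOR*. The shares of all genes were 7.61% and 12.8%, 8.02% and 17%, and 2.32% and 5.44%. *LTI30*, a dehydrin, and *RAB18*, an ABA-induced dehydrin, were higher in all 3 genotypes. After re-watering 5, 7 and 7 of the 8 were lower than in well-watered leaves and 1, *ZAT12*, was higher. The medians were -2.43, -2.07 and -3.69 beside 0.02, 0.02 and 0.00 over all genes. In the same order, 15.8%, 7.95% and 9.92% of all genes were called lower and 14.4%, 6.68% and 9.72% higher. *COR15A*, which encodes a chloroplast protein that protects membranes, went from 52203 to 4954 normalized counts in WT, 39400 to 8609 in the guard cell line and 54190 to 4632 in *35S::AtTOR*. Against re-watered WT, 3 of the 8 were called higher (*COR15B*, *COR27* and *RAB18*) and 2 lower (*GOLS3* and *LTI30*) in the guard cell line. The median of the 8 was 0.44 beside 0.01 over all genes, of which 8.3% were called higher and 6.35% lower. In *35S::AtTOR* 1 was higher (*RAB18*) and 2 lower (*GOLS3* and *LTI30*). The median there was -0.07 beside 0.02 over all genes, of which 5.15% were called higher and 4.85% lower. *LTI30* was lower in both lines, at -3.45 ± 0.22 and -3.46 ± 0.22, while *RAB18* was higher, at 1.69 ± 0.48 and 1.42 ± 0.48 (adjusted p = 0.00708 and 0.0226, limma).

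The 17 other genes named RD or ERD, for responsive to dehydration and early responsive to dehydration, did not move as a set. In drought 2 were higher and 4 lower in WT, 3 and 5 in the guard cell line, and 1 and 1 in *35S::AtTOR*. The shares of all genes were 7.61% and 12.8%, 8.02% and 17%, and 2.32% and 5.44%. *RD26*, a NAC factor, rose by 2.08 ± 0.37 in WT and 1.73 ± 0.37 in *GC::AtTOR*, while *RD28*, a plasma membrane aquaporin, fell by 2.45 and 3.24 on the log2 scale. After re-watering 7 were higher and 3 lower than in well-watered WT, against 1 and 7 in the guard cell line and 4 and 7 in *35S::AtTOR*. The shares of all genes were 14.4% and 15.8%, 6.68% and 7.95%, and 9.72% and 9.92%. Relative to re-watered WT, 7 of the 17 were lower in each line and 0 higher, among them the dehydrins *COR47* (-1.76 ± 0.24 and -2.07 ± 0.24) and *ERD10* (-1.27 ± 0.23 and -1.66 ± 0.23). The median difference of the 17 was -0.98 in the guard cell line and -0.92 in *35S::AtTOR*, beside 0.01 and 0.02 over all genes. Called lower and higher among all genes were 6.35% and 8.3% in the guard cell line, and 4.85% and 5.15% in *35S::AtTOR*.

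Of 14 family members of the 8 genes, the caleosins, BURP proteins and COR413 proteins, 7 passed the filter on low values and were tested. *COR413IM2*, the neighbour of *COR414-TM1*, fell after re-watering by 1.51 in WT and 1.20 in *35S::AtTOR* on the log2 scale. *AT2G23680*, a gene of the COR413 family, had means of 234, 41.1 and 656 normalized counts in well-watered, droughted and re-watered WT, 445, 27.8 and 568 in the guard cell line, and 348, 175 and 843 in *35S::AtTOR*. It was called lower in drought in WT and *GC::AtTOR*, at -2.65 ± 0.46 and -4.11 ± 0.46, and higher in re-watered than in well-watered leaves in WT and *35S::AtTOR*, at 1.49 ± 0.46 and 1.26 ± 0.46 (largest adjusted p = 0.0238, limma).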

How the data were processed

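RNA from 27 leaf samples was sequenced as paired reads from TruSeq libraries, whose strand setting is not given in the sources used here. The authors used Trimmomatic to trim, STAR to align to TAIR10, Salmon to quantify and tximport to go from transcripts to genes. The deposited signal values are counts per gene that the authors scaled by the size factor DESeq2 gave each library. Low values were whole multiples of 1 step per sample (100% of values within 0.1 reads), and the step gave recovered reads in 26 samples. *35S::AtTOR* well-watered replicate 1, with a step of 1.003, too near 1 to be accepted, was left out of edgeR 4.0.16 and DESeq2 1.42.0 only.

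Tests used limma 3.58.1 in R 4.3.3 on log2(normalized count + 1), in 1 model of 9 groups with 18 residual degrees of freedom, over the 18785 genes whose mean reached 10 in a group, Benjamini-Hochberg adjusted over all of them, in 19 comparisons. Calls took the thresholds of the study, an adjusted p below 0.05 with a log2 fold change beyond 1 in either direction. The text names the 8 genes, *TOR*, genes of 4 written lists, marker genes and the 3 genes with the highest Pearson r to each of the 8. The 8 genes, the lists and the tests were chosen with earlier results of these data known. Sequences, positions and transcript lengths are those of RefSeq on TAIR10.1, in which all 8 loci were found. Motifs were sought as exact letters on both strands. Nothing shows whether replicates came from separate plants or pools, and p-values measure only the spread between these samples.

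Alternatives tried were a pseudocount of 0.5 or 5, a minimum mean of 0 or 50, a fit to the compared groups alone, robust eBayes, the replicate or library number as a block, totals made equal, an adjusted p below 0.01, calls without a floor on the fold change, recovered reads in edgeR and DESeq2, and leaving out each sample.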

Additional observations from a re-analysis of the deposited data

Results flagged for a closer look

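For 11 values the change of a line from well-watered leaves differed from that of WT by the test of the difference itself (limma interaction term), which sets these results apart from the others. After drought they were *KIN2* (1.34) and *RD29B* (-4.21) in *35S::AtTOR*. After re-watering they were *RD29A* (-3.29), *RD20* (-1.41), *COR414-TM1* (-1.20) and *RD22* (1.75) in *GC::AtTOR*, and *RD29A* (-3.93), *RD29B* (-2.37), *KIN1* (-2.19), *COR414-TM1* (-2.0) and *COR413-PM1* (-1.12) in *35S::AtTOR*, all as differences of log2 fold changes. Of these, the calls in *35S::AtTOR* of *KIN2* after drought and of *RD29B* and *COR413-PM1* after re-watering were lost under some alternatives. Both lines share the WT samples. Groups of 3 samples were not searched for single outlying samples.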

How the results depend on the processing

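Of the 152 log2 fold changes of the 8 genes, 69 were called as reported and 83 under at least 1 setting. Over the 1655 alternative values of these 83, 0 changed sign, 28 lost the call and 23 gained it. Of the 69 never called, 30 changed sign under some alternative. With no floor on the fold change, 5 of the 8 genes were called in WT drought (3 as reported) and 7 in re-watered *GC::AtTOR* against WT (4 as reported). With an adjusted p under 0.01, 1 was called in *35S::AtTOR* drought and 1 in the difference of its drought response from WT (2 each as reported). Leaving out 1 sample at a time, these 2 counts ranged from 1 to 2, and that of droughted *35S::AtTOR* against WT from 0 to 1 (*KIN2*, without WT drought replicate 2). *COR413-PM1* in the re-watering response of *35S::AtTOR* fell just under the floor (-0.99 and -1.0) without replicate 2 of re-watered WT or of *35S::AtTOR*. All other counts, also under edgeR and DESeq2, stayed within 1.5 times those reported.

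Samples with the same replicate number did not deviate together (median r = 0.006 over 108 pairs of samples, 17 of them over 0.1), and the numbers were not taken to pair the samples. With the replicate block, 3, 4 and 2 of the 8 genes were called in drought in WT, *GC::AtTOR* and *35S::AtTOR*, 7, 8 and 7 after re-watering against well-watered leaves, and 4 and 4 in the re-watered lines against WT, the same counts as without it. Depth limits *RD29B* after re-watering, at 6 to 11 reads per sample.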
